A study of Homo sapiens with 18 samples.

Results

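The BCL2 family controls whether the outer membrane of mitochondria becomes permeable during cell death, and 10 of its genes were followed in U251 glioblastoma cells exposed to enzastaurin. The genes were BCL2, BCL2L1, MCL1, BAX, BAK1, BCL2L11, PMAIP1, BBC3, BID and BIK. Members were the probe sets to which the platform annotation gives only 1 gene symbol, that of a listed gene. This rule was met by 30 of the 54613 probe sets on the array. They covered 9 of the 10 genes. The single probe set listed for BBC3 carries 3 symbols, so BBC3 was not used here. Each gene is represented by its brightest probe set over the 18 arrays, and every other probe set is given beside it.

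U251 is an established human glioblastoma line, grown here in RPMI medium with 5% serum. The groups were enzastaurin and its vehicle, dimethyl sulfoxide (DMSO), each at 4, 10 and 18 h, with 3 arrays per group. Enzastaurin blocks serine/threonine kinases, protein kinase C beta first among them, and the study's title concerns glioma cell death after GSK3 inhibition. The labels state neither its concentration nor whether the 3 samples of a group were separate cultures, so p-values below cover the spread among these samples only, and that spread may be technical. Every group is this 1 line, so the values hold for U251 alone.

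Family members fall into 3 roles. BCL2, BCL-XL (from BCL2L1) and MCL1 are prosurvival proteins that hold the other members in check. BAX and BAK (from BAK1) are the effectors, which assemble in the outer membrane and release cytochrome c into the cytosol. The BH3-only proteins BIM (from BCL2L11), NOXA (from PMAIP1), PUMA (from BBC3), BID and BIK start the process: BIM and PUMA bind every prosurvival member, NOXA prefers MCL1, BID is activated when caspase-8 cleaves it, and BIK sits at the endoplasmic reticulum. Several of these proteins are controlled after translation, and MCL1 protein is marked for destruction after phosphorylation by GSK3. The arrays measured messenger RNA, so none of these protein steps was measured.

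The sequences upstream of BCL2L11 and PMAIP1 are shown because these were the 2 members that rose in enzastaurin-treated cells. They are the 250 bases before the annotated start of each gene in RefSeq on GRCh38.p14, both on the plus strand, at chr2:111120664-111120913 for BCL2L11 and chr18:59899746-59899995 for PMAIP1. Capitals mark the only motif found in them, a FOXO site read on the opposite strand.
BCL2L11: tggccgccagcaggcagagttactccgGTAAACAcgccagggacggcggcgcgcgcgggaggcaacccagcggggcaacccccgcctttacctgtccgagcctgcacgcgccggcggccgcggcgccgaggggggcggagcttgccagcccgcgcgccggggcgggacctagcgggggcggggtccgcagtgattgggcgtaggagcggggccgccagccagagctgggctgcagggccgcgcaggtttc
PMAIP1: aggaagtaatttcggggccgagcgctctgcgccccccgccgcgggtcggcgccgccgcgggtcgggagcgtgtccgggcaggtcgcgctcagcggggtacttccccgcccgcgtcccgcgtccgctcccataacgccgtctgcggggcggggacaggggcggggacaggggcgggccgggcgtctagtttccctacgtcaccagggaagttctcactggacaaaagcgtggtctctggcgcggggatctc
Both stretches were rich in G and C, at 76.8% for BCL2L11 and 72.8% for PMAIP1. Each was searched on both strands for 5 motifs: the C/EBP-ATF element TGATGNAAT, the CRE TGACGTCA, the E-box CACGTG, the AP-1 site TGANTCA and the FOXO site TGTTTAC. The BCL2L11 stretch held 1 match, a FOXO site whose first base lies at -223, and 2.98% of 35116 human promoter windows of that length held this motif. The PMAIP1 stretch held none of the 5. Of the 8 member genes with an entry, BAX, BBC3 and BID had a window with an E-box (6.34% of all windows) and BBC3 also an AP-1 site (6.57%). None held the CRE (1.65%) or the C/EBP-ATF element (0.888%). BCL2L1 and BID had more than 1 window, so these matches are per gene and the shares per window. Not every BID window held the E-box, and its matches at -106 and -47 are 1 site in overlapping windows. A match is a description of letters and not evidence of binding.

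Values are array intensities as deposited, scaled so that the trimmed mean of every array was 498.2 to 498.5. Array medians ran from 99.2 to 125.9, and arrays of the same group correlated at 0.977 to 0.986. Of 10 astroglial and glioma markers, 8 were at or above the level filter (an intensity of about 102), with a mean level over all arrays of 32569 for VIM and 19336 for CD44, while GFAP at 27.8 and S100B were below it. Some of the 8 moved with treatment: SOX2 was lower at 4 h (-0.54, adjusted p = 0.000438), and at 18 h SOX2 (0.45, adjusted p = 0.000292) and EGFR (0.53, adjusted p = 0.00121) were higher and NES (-0.67, adjusted p = 3.01e-06) and PDGFRA (-2.21, adjusted p = 0.000625) lower. Markers of other cell types at or above the filter were 1 of 5 for leukocytes, 1 of 4 epithelial (KRT8, mean 2659), 1 of 3 endothelial and 1 of 3 neuronal (NEFL, mean 24031). At 18 h KRT8 (-0.33, adjusted p = 0.0023) and NEFL (-0.40, adjusted p = 0.000227) were lower. The part of any of these markers in the results for the family was not tested. Changes are differences in log2(intensity + 16) between enzastaurin and DMSO at the same hour, estimated with limma over 12376 genes. A gene is said to rise or fall where its Benjamini-Hochberg adjusted p was under 0.05. The offset of 16 makes the changes of dim genes look smaller than they are. In these bulk samples fewer cells of a kind and less RNA per cell cannot be told apart.

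BCL2L11 and PMAIP1, which encode BH3-only proteins, rose at 10 and 18 h, BID fell at 18 h, and no prosurvival or effector gene passed the test at any hour through its main probe set. At 4 h, 0 of the 9 genes passed, against 1.81% of all genes tested (69 higher and 155 lower, or 54 and 25 with array medians subtracted), and 1 of them (MCL1) had an unadjusted p under 0.05. At 10 h, 2 genes were higher and 0 lower, where 3.77% of all genes were higher and 4.69% lower. At 18 h, 2 were higher and 1 lower, where the share over all genes was 8.10% higher and 7.90% lower. The median change of the 9 genes was -0.03 at 4 h, 0.09 at 10 h and 0.22 at 18 h, beside medians over all genes of 0.00057, -0.016 and 0.0012. A count over 9 genes is coarse beside such shares, so each gene is described by its own values.

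**Figure D1:**
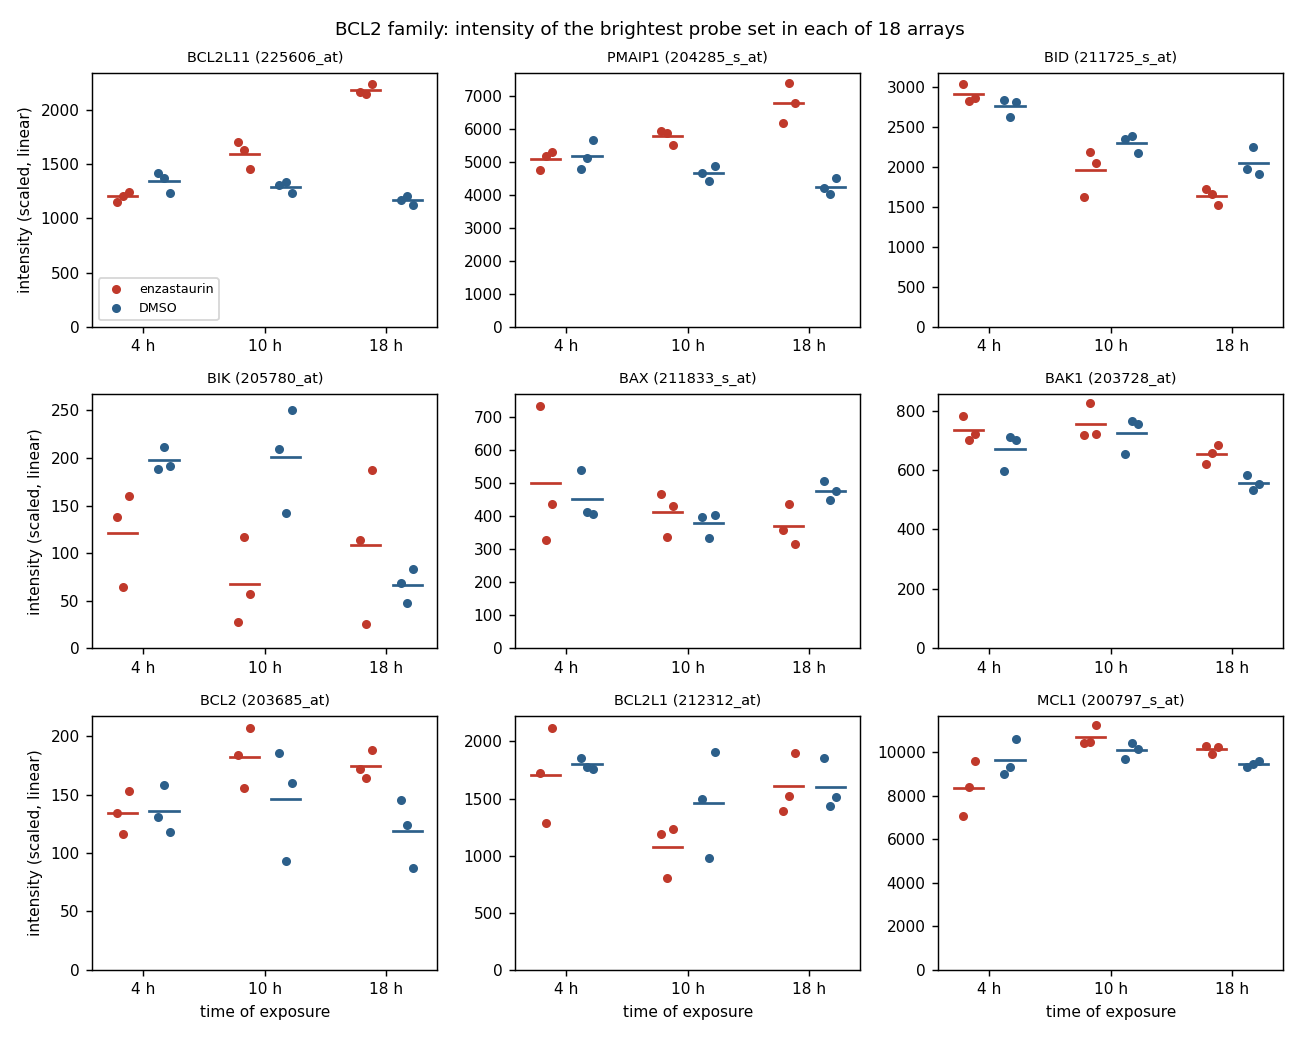
Intensity of the main probe set of each of the 9 measured BCL2 family genes (vertical axis, arbitrary intensity units) at 4, 10 and 18 h, with enzastaurin arrays left of DMSO arrays at each hour. Points are single arrays and bars the mean of 3; BCL2L11 and PMAIP1 separate at 10 h and stay apart at 18 h, where BCL2L11 averaged 2186 in enzastaurin-treated cells and 1166 in DMSO-treated cells.

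BCL2L11 encodes BIM, the BH3-only protein that binds all prosurvival members. Its main probe set, 225606_at, read 1153, 1209 and 1243 in enzastaurin-treated cells at 4 h, against 1416, 1373 and 1234 in DMSO-treated cells. At 10 h it read 1700, 1630 and 1451 with enzastaurin, against 1305, 1340 and 1233 with DMSO. At 18 h it read 2169, 2148 and 2242 with enzastaurin, against 1165, 1210 and 1122 with DMSO. The groups overlapped at 4 h and were fully apart at 10 and 18 h, with every enzastaurin array above every DMSO array. The change was -0.15 (SE 0.08, adjusted p = 0.409) at 4 h, 0.30 (SE 0.08, adjusted p = 0.0173) at 10 h and 0.90 (SE 0.08, adjusted p = 4.05e-08) at 18 h, the last a 1.86-fold increase. The 18 h rise held under every alternative tried, with changes of 0.38 to 0.93. The 10 h call was lost in 6 of 17 alternatives: with the 7 probe sets averaged (0.03, adjusted p = 0.899), with array medians subtracted (adjusted p = 0.144), with only the 2 groups in the fit (adjusted p = 0.0559), and without DMSO replicate 3 (adjusted p = 0.0817), enzastaurin replicate 1 (adjusted p = 0.0963) or enzastaurin replicate 2 (adjusted p = 0.0685).

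The 7 probe sets of BCL2L11 did not move by the same amount. In a second fit with every probe set on its own, all 7 were positive at 18 h and 2 passed: 225606_at and 1558143_a_at, where 1558143_a_at had a change of 0.80 (adjusted p = 0.0017). 1558143_a_at read 940.3, 996.1 and 1043 with enzastaurin at 18 h, against 453.2, 598.5 and 655.0 with DMSO. These groups did not overlap. The other 5 probe sets had changes of 0.08 to 0.33 at 18 h and none passed. At 10 h 5 of the 7 were positive and 2 negative (1553088_a_at at -0.28 and 222343_at at -0.14). Only 225606_at passed at that hour, where 2.76% of all probe sets did. For the difference between the 18 h and the 4 h effect 6 were positive and 1 negative (222343_at at -0.01). Of these, 225606_at and 1558143_a_at passed, where 2.39% of all probe sets did in either direction. Which transcripts of BCL2L11 each probe set reads is not given in the sources used here, so the 7 values cannot be assigned to isoforms.

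PMAIP1 encodes NOXA, the BH3-only protein that binds MCL1. Its main probe set, 204285_s_at, read 4775, 5193 and 5295 in enzastaurin-treated cells at 4 h, against 4799, 5136 and 5665 in DMSO-treated cells. At 10 h it read 5949, 5878 and 5506 with enzastaurin, against 4662, 4418 and 4886 with DMSO. At 18 h it read 6189, 7398 and 6786 with enzastaurin, against 4204, 4023 and 4511 with DMSO. As with BCL2L11, the groups overlapped at 4 h and were apart at both later hours. The change was -0.03 (SE 0.08, adjusted p = 0.924), 0.31 (SE 0.08, adjusted p = 0.0129) and 0.67 (SE 0.08, adjusted p = 2.27e-06), the last a 1.60-fold increase. At 18 h it passed under every alternative tried, and at 10 h under 14 of 17, the exceptions being array medians subtracted (adjusted p = 0.108) and the fits without DMSO replicate 2 (adjusted p = 0.073) or enzastaurin replicate 1 (adjusted p = 0.0546).

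PMAIP1 has a second probe set, 204286_s_at, which moved in the same direction and further. It read 3976, 3456 and 3732 with enzastaurin at 10 h, against 2662, 2562 and 2889 with DMSO. At 18 h it read 4196, 4178 and 4392 with enzastaurin, against 1833, 2214 and 2511 with DMSO. No enzastaurin array lay within the range of DMSO at either hour. In the fit of every probe set its change was 0.46 (adjusted p = 0.0107) at 10 h and 0.97 (adjusted p = 1.76e-06) at 18 h. Both probe sets of the gene passed at both hours in that fit, and both 18 h calls held in all 11 alternatives. The 10 h call was lost in 3 of 11 for 204286_s_at (adjusted p up to 0.0892) and in 6 of 11 for 204285_s_at (adjusted p up to 0.214).

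BID, whose protein joins death receptor signalling to mitochondria, fell at 18 h through its main probe set 211725_s_at. It read 1716, 1663 and 1525 in enzastaurin-treated cells at 18 h, against 1964, 2246 and 1912 in DMSO-treated cells, and the groups did not overlap. The change was -0.32 (SE 0.09, adjusted p = 0.0229), a fold of 0.804. At 4 h it was 0.08 (adjusted p = 0.8) and at 10 h -0.24 (adjusted p = 0.118), while at 10 h the other 2 probe sets of the gene were positive, at 0.19 and 0.22, and did not pass. The 18 h call was lost in 6 of 17 alternatives, among them without DMSO replicate 2 (adjusted p = 0.123) and without enzastaurin replicate 3 (adjusted p = 0.0988). The other 2 probe sets of BID, 227143_s_at and 204493_at, had changes of -0.17 and -0.01 at 18 h and did not pass. In the fit of every probe set, 211725_s_at passed at 18 h with an adjusted p of 0.0496 and lost the call in 10 of 11 alternatives, among them without any 1 of the 6 arrays.

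BIK, the BH3-only protein of the endoplasmic reticulum, was dim and scattered. Its only probe set, 205780_at, read 138.0, 64.8 and 160.1 with enzastaurin at 4 h, against 188.7, 212.1 and 192.1 with DMSO. At 10 h it read 27.8, 117.3 and 57.4 with enzastaurin, against 209.7, 142.1 and 250.7 with DMSO. At 18 h it read 113.4, 25.4 and 187.5 with enzastaurin, against 68.6, 47.6 and 83.2 with DMSO. The groups were apart at 4 and 10 h, lower with enzastaurin, and overlapped at 18 h. The change was -1.49 at 10 h (SE 0.48, adjusted p = 0.0586), which did not pass. It passed under 4 of the alternatives, among them without enzastaurin replicate 2 (adjusted p = 0.0306).

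The effector genes BAX and BAK1 did not pass at any hour. BAX, read by 211833_s_at, gave 357.1, 437.7 and 316.1 with enzastaurin at 18 h, against 505.3, 449.3 and 476.6 with DMSO, which do not overlap. Its change was -0.36 (95% interval -0.80 to 0.08, adjusted p = 0.286), and that of its second probe set, 208478_s_at, was -0.52 (adjusted p = 0.15). BAK1, read by 203728_at, gave 619.7, 658.2 and 683.4 with enzastaurin at 18 h, against 584.9, 532.9 and 553.8 with DMSO. These too do not overlap, and the change was 0.22 (95% interval 0.01 to 0.44, adjusted p = 0.153). At 4 and 10 h the changes of the main probe sets of both genes lay between 0.06 and 0.13. The second probe set of BAX was at -0.13 at 4 h and 0.12 at 10 h.

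Among the prosurvival genes MCL1 moved at 4 h through 1 of its 6 probe sets. The main probe set, 200797_s_at, read 7090, 8400 and 9596 with enzastaurin at 4 h, against 9016, 9315 and 10588 with DMSO, which overlap. Its change was -0.21 (SE 0.08, adjusted p = 0.275). The next, 200798_x_at, read 3107, 3451 and 3690 with enzastaurin, against 4538, 4627 and 5085 with DMSO. Those groups were apart, and in the fit of every probe set MCL1 fell there by 0.48 on the log2 scale (SE 0.08, adjusted p = 0.00598). All 6 probe sets of MCL1 were negative at 4 h, and with the 6 averaged the change was -0.31 (adjusted p = 0.0317). The call of 200798_x_at was lost with array medians subtracted (-0.36, adjusted p = 0.285) and without DMSO replicate 3 (adjusted p = 0.0502).

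By 10 and 18 h the MCL1 changes of the main probe set were 0.09 and 0.10, and those of 200798_x_at were -0.08 and -0.02. The difference between the 18 h and the 4 h effect was past the threshold for 1 of the 6 probe sets. This was 200798_x_at, at 0.45 (adjusted p = 0.0398), where 2.39% of all probe sets passed in either direction. For the main probe set the difference was 0.31 and did not pass (adjusted p = 0.239 in the same fit). The difference of 200798_x_at was not run through the alternatives. MCL1 main probe set arrays were apart at 18 h, at 10266, 9904 and 10238 with enzastaurin, against 9314, 9438 and 9612 with DMSO, but the change there did not pass (adjusted p = 0.494).

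BCL2L1 and BCL2 did not pass. BCL2L1, which encodes BCL-XL, averaged 1606 ± 263 with enzastaurin at 18 h and 1600 ± 227 with DMSO (SD, n = 3 each) through 212312_at, a change of 0.0023 with a 95% interval of -0.42 to 0.43. At 10 h the change was -0.41 (SE 0.20, adjusted p = 0.253), all 4 probe sets of the gene were negative, and without DMSO replicate 2 the change was -0.67 and passed (adjusted p = 0.0466), while without DMSO replicate 3 it was -0.19 (adjusted p = 0.701). Arrays within a group varied widely at this probe set, which read 1186, 801.9 and 1237 with enzastaurin at 10 h, against 1496, 979.3 and 1909 with DMSO. A second probe set of BCL2L1, 206665_s_at, read 259.6, 205.1 and 176.1 with enzastaurin at 18 h, against 291.1, 302.4 and 288.1 with DMSO, with a change of -0.45 (adjusted p = 0.172). The changes of 215037_s_at were 0.13, -0.06 and 0.04 at 4, 10 and 18 h. Those of 231228_at, which lay below the level filter, were 0.51, -0.50 and 0.57, and neither probe set passed. BCL2 was near the level filter, and 203685_at read 172.0, 164.0 and 188.1 with enzastaurin at 18 h, against 145.0, 124.0 and 86.8 with DMSO. The BCL2 change was 0.53 (95% interval -0.0044 to 1.06, adjusted p = 0.183). Of its 4 probe sets 2 lay below the filter. Above it, 207004_at was at 0.05, 0.15 and -0.07 at 4, 10 and 18 h (adjusted p = 0.963 at 18 h in the fit of every probe set). Below it, 203684_s_at was at -1.54, -0.11 and 0.14, and 207005_s_at at -0.05, 0.05 and 0.19. None of these passed.

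**Figure D2:**
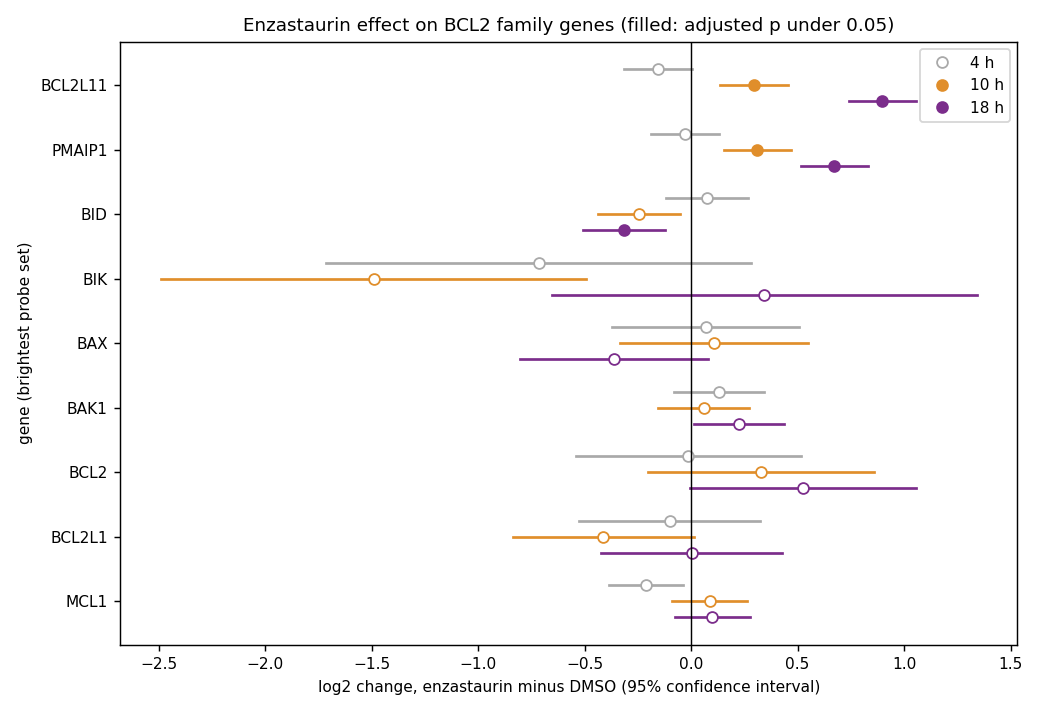
Change between enzastaurin and DMSO in log2(intensity + 16) for the main probe set of each of the 9 measured genes at 4, 10 and 18 h, with 95% intervals from limma and filled points where the adjusted p was under 0.05. BCL2L11 goes to 0.90 and PMAIP1 to 0.67 at 18 h, while BIK has the widest intervals.

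By raw separation of the arrays, more genes stood apart than passed the test. At 4 h, 0 genes were apart upward and 1 downward, where 9.17% and 9.13% of all genes were. At 10 h, 2 were apart upward and 1 downward, against 11.8% and 15.0% of all genes. At 18 h, 5 were apart upward (BCL2L11, PMAIP1, BCL2, MCL1 and BAK1) and 2 downward (BID and BAX), against 15.4% and 14.4% of all genes.

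Over all 30 probe sets of the family, 1 passed at 4 h, 3 at 10 h and 5 at 18 h, where 0.533%, 2.76% and 6.13% of 41091 probe sets passed. The 3 at 10 h were 225606_at of BCL2L11 and both probe sets of PMAIP1. The 10 h call of 225606_at in this fit was lost in 6 of 11 alternatives. The 5 at 18 h were 2 of BCL2L11, 2 of PMAIP1 and 1 of BID. Probe sets of 1 gene read the same RNA and are not separate replicates. Of the 30, 27 were at or above the level filter, and the 3 below it were 203684_s_at and 207005_s_at of BCL2 and 231228_at of BCL2L1.

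**Figure D3:**
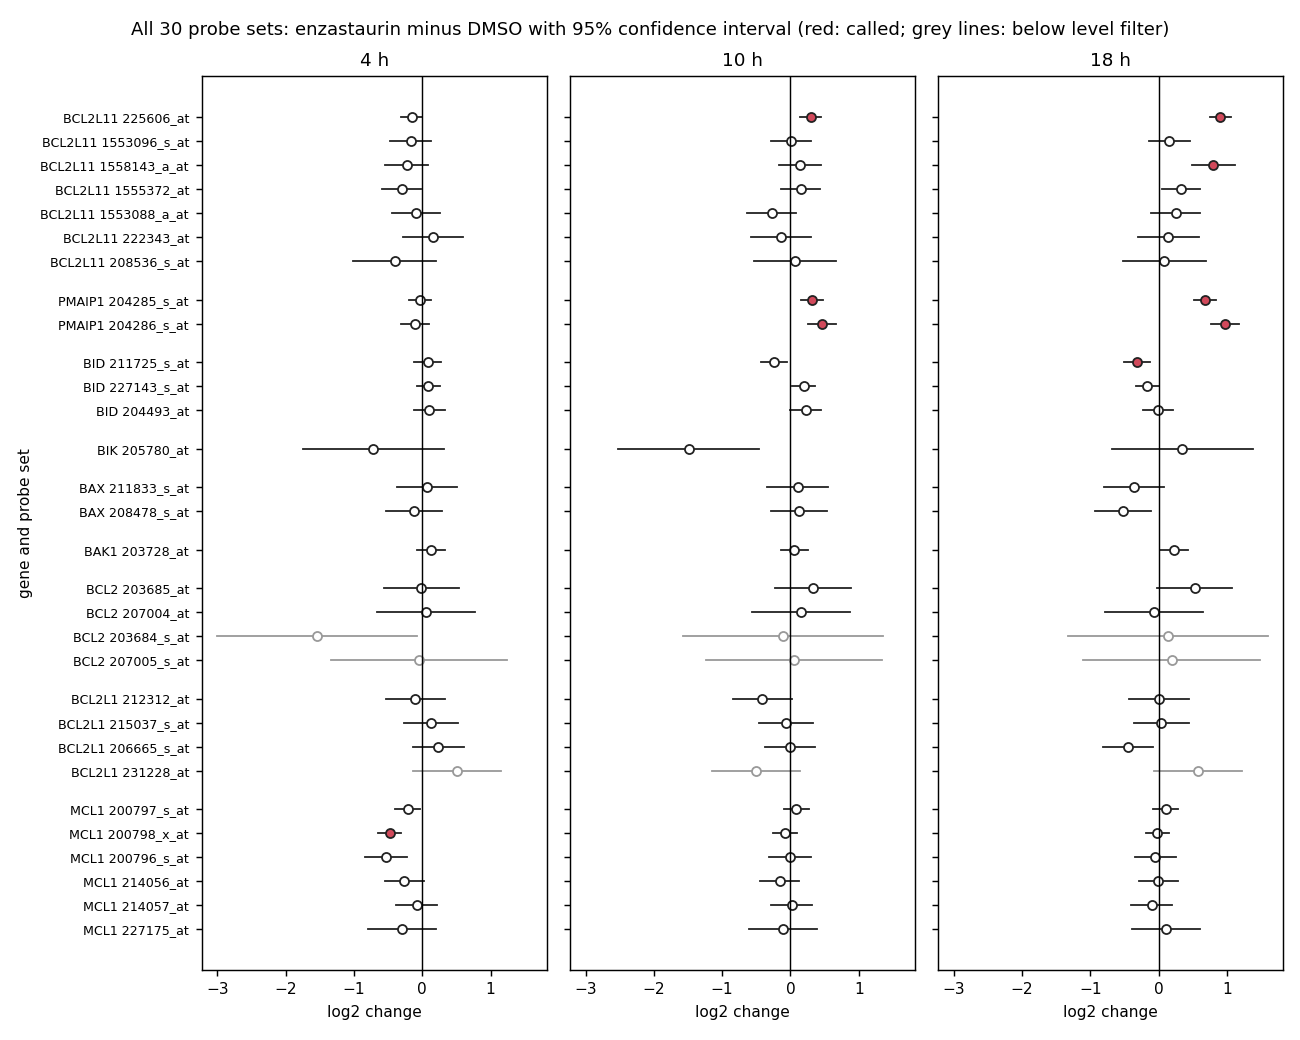
Change between enzastaurin and DMSO in log2(intensity + 16) for each of the 30 probe sets of the 9 genes, at 4, 10 and 18 h, with 95% intervals from the fit of every probe set. All 6 probe sets of MCL1 lie below 0 at 4 h and all 7 of BCL2L11 above 0 at 18 h, and the probe sets of BCL2 under the level filter have wide intervals.

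The growth of the enzastaurin effect with time was tested as a difference between hours. Between 4 and 18 h it grew for BCL2L11 by 1.05 (SE 0.11, adjusted p = 2.5e-06) and for PMAIP1 by 0.70 (SE 0.11, adjusted p = 0.000257), 2 of 9 genes where 4.07% of all genes had a more positive effect at 18 h. For BCL2L11 the step between 4 and 10 h was 0.45 (adjusted p = 0.0422), in a comparison where 0.808% of all genes passed upward, and the step between 10 and 18 h was 0.60 (adjusted p = 0.0037), where 1.33% did. The corresponding steps of PMAIP1 were 0.34 and 0.36 and did not pass. The 4 to 10 h step of BCL2L11 was lost in 14 of 23 alternatives, 9 of which left out a single array of the 4 groups (adjusted p up to 0.121), and 225606_at did not pass for it in the fit of every probe set (adjusted p = 0.0873). The step between 10 and 18 h was lost with array medians subtracted (adjusted p = 0.11) and with probe sets averaged (adjusted p = 0.26). Averaged over the 3 hours, BCL2L11 at 0.35 (adjusted p = 8.35e-06) and PMAIP1 at 0.32 (adjusted p = 2.33e-05) were higher and BID at -0.16 (adjusted p = 0.0403) was lower, where 9.07% of all genes were higher and 9.44% lower. The average of BID was lost in 14 of 28 alternatives. It belonged to 1 of 3 probe sets, since the other 2 averaged 0.04 and 0.11, and with the 3 averaged it was -0.0053 (adjusted p = 0.947). The average of BCL2L11 was lost with its probe sets averaged (adjusted p = 0.369). The averages and the steps use the same arrays as the comparisons at single hours.

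The DMSO cells' own levels also differed between hours. Between 4 and 18 h in DMSO, PMAIP1 fell by 0.29 (adjusted p = 0.00952), BID fell by 0.43 (adjusted p = 0.00206) and BIK fell by 1.40 (adjusted p = 0.0438), 3 of 9 genes where 9.00% of all genes fell. The call of BIK was lost without any 1 of the 6 DMSO arrays, with adjusted p up to 0.14 without DMSO replicate 2 of 18 h, and that of PMAIP1 with array medians subtracted (adjusted p = 0.0834) and without DMSO replicate 2 of 18 h (adjusted p = 0.051) or DMSO replicate 3 of 4 h (adjusted p = 0.064). BCL2L11 did not pass there through its main probe set (-0.20, adjusted p = 0.0746). In the fit of every probe set the main one was the only 1 of its 7 that was negative, and 6 were positive. At the main probe sets, DMSO arrays at 4 and 18 h were apart, lower at 18 h, for 5 of the 9 genes, against 15.3% of all genes. At 18 h the DMSO arrays of PMAIP1 averaged 4246 ± 246, against 5200 ± 436 at 4 h, and those of BID 2040 ± 180, against 2752 ± 118 (SD, n = 3 each).

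BID arrays with enzastaurin averaged 1635 ± 99.0 at 18 h, against 2903 ± 118 at 4 h, so its level was lower at the later hour in both arms. All 3 BID probe sets fell with time in DMSO in the fit of every probe set, by 0.43 (adjusted p = 0.00481), 0.62 (adjusted p = 2.89e-05) and 0.85 (adjusted p = 2.43e-05), where 8.57% of all probe sets passed in either direction. MCL1 ran the other way at 200798_x_at, with 0.40 (adjusted p = 0.0029). That was 1 of its 6 probe sets, and the main MCL1 probe set, at -0.02, did not pass. The BCL2L11 probe set 222343_at was also higher at 18 h, at 0.69 (adjusted p = 0.0482), while the main probe set of that gene was not. Whether medium, density or time in the dish moved these levels was not tested.

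Other genes of the family were read from a list of 14, of which 9 were above the level filter. At 4 h none passed (2 had an unadjusted p under 0.05), where 1.81% of all genes did. At 10 h and at 18 h 0 were higher and 3 lower, where 3.77% and 8.10% of all genes were higher and 4.69% and 7.90% lower. The 3 were BNIP3L, BNIP3 and BCL2L13, mitochondrial proteins known as receptors for the removal of mitochondria by autophagy. BNIP3L averaged 665.4 ± 76.5 with enzastaurin at 18 h and 1582 ± 131 with DMSO (SD, n = 3 each). Its changes were -0.22, -0.69 (adjusted p = 0.000147) and -1.23 (adjusted p = 2.81e-08) at the 3 hours. BNIP3 changed by 0.05, -0.25 (adjusted p = 0.0389) and -0.44 (adjusted p = 0.000207), and BCL2L13 by -0.17, -0.34 (adjusted p = 0.00554) and -0.24 (adjusted p = 0.0351). The 10 h call of BNIP3 was lost in 10 of 17 alternatives and the 18 h call of BCL2L13 in 7. The median change of the 9 genes was 0.05, -0.15 and -0.06 at 4, 10 and 18 h.

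Of 14 genes of the outer membrane and apoptosome, among them the VDAC channels, CYCS (cytochrome c), APAF1 and XIAP, 12 were tested and 0 passed at each hour by limma. Over all genes 1.81% passed at 4 h, 3.77% were higher and 4.69% lower at 10 h, and 8.10% higher and 7.90% lower at 18 h. A count over 12 genes is coarse beside such shares. With unadjusted p under 0.05 there were 1, 2 and 2 of the 12, and the smallest adjusted p was 0.0567, 0.0573 and 0.0504. The median changes of the 12 were 0.02, -0.04 and 0.02 at 4, 10 and 18 h. For the average of the 3 hours 2 of the 12 passed, where 9.07% of all genes were higher and 9.44% lower: APAF1, the scaffold of the apoptosome, was lower (-0.35, adjusted p = 0.00228) and VDAC1 higher (0.13, adjusted p = 0.0219). Of 9 genes for the turnover of MCL1, 8 were tested, and at single hours 1 passed, GSK3B at 18 h, where 8.10% of all genes were higher: it averaged 3089 ± 122 with enzastaurin and 2203 ± 83.6 with DMSO (SD, n = 3 each). The GSK3B change was 0.48 (SE 0.07, adjusted p = 6.81e-05), after -0.13 at 4 h and 0.06 at 10 h, and 1 of its 5 probe sets passed. For the average of the 3 hours GSK3B was higher (0.14, adjusted p = 0.0251) and the kinase gene MAPK8 lower (-0.19, adjusted p = 0.0176). FBXW7 and HUWE1, which tag MCL1 for degradation, had changes of 0.15 and -0.0060 at 18 h.

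Transcription factors that are known to act on the family genes moved in both directions. Of 14 listed, 13 were tested: 0 rose and 2 fell at 4 h (0.558% and 1.25% of all genes), 3 rose and 1 fell at 10 h (3.77% and 4.69%), and 3 rose and 3 fell at 18 h (8.10% and 7.90%), with median changes of -0.0094, 0.12 and -0.05. ATF4, an activator in the response to stress of the endoplasmic reticulum, averaged 13577 ± 1133 with enzastaurin at 18 h and 9010 ± 396 with DMSO (SD, n = 3 each). Its changes were 0.22, 0.73 (adjusted p = 1e-06) and 0.59 (adjusted p = 6.66e-06). ATF3, a stress-induced factor of the same family, had changes of -0.09, 0.86 (adjusted p = 0.000187) and 1.05 (adjusted p = 6.92e-06). With its 3 probe sets averaged the ATF3 change was 0.41 at 10 h (adjusted p = 0.0708) and 0.46 at 18 h (adjusted p = 0.0222), and the other 2 probe sets did not pass at 18 h (-0.20 and 0.53).

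MYC fell at every hour, by 0.70 (adjusted p = 0.000814), 0.75 (adjusted p = 0.000103) and 1.04 (adjusted p = 6.57e-07). JUN, a subunit of AP-1, fell by 0.69 at 4 h (adjusted p = 0.000892) and by 0.62 at 18 h (adjusted p = 0.000299), and was at -0.32 at 10 h (adjusted p = 0.0722). At 10 h JUN passed in 4 of 17 alternatives, with its 4 probe sets averaged at -0.54 (adjusted p = 7.6e-05), and 2 of the other 3 probe sets passed on their own (-0.63 and -0.76). The 4 h calls of MYC and JUN were lost with array medians subtracted (adjusted p = 0.0582 and 0.0802). No value here ties any of these factors to BCL2L11 or PMAIP1.

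**Figure D4:**
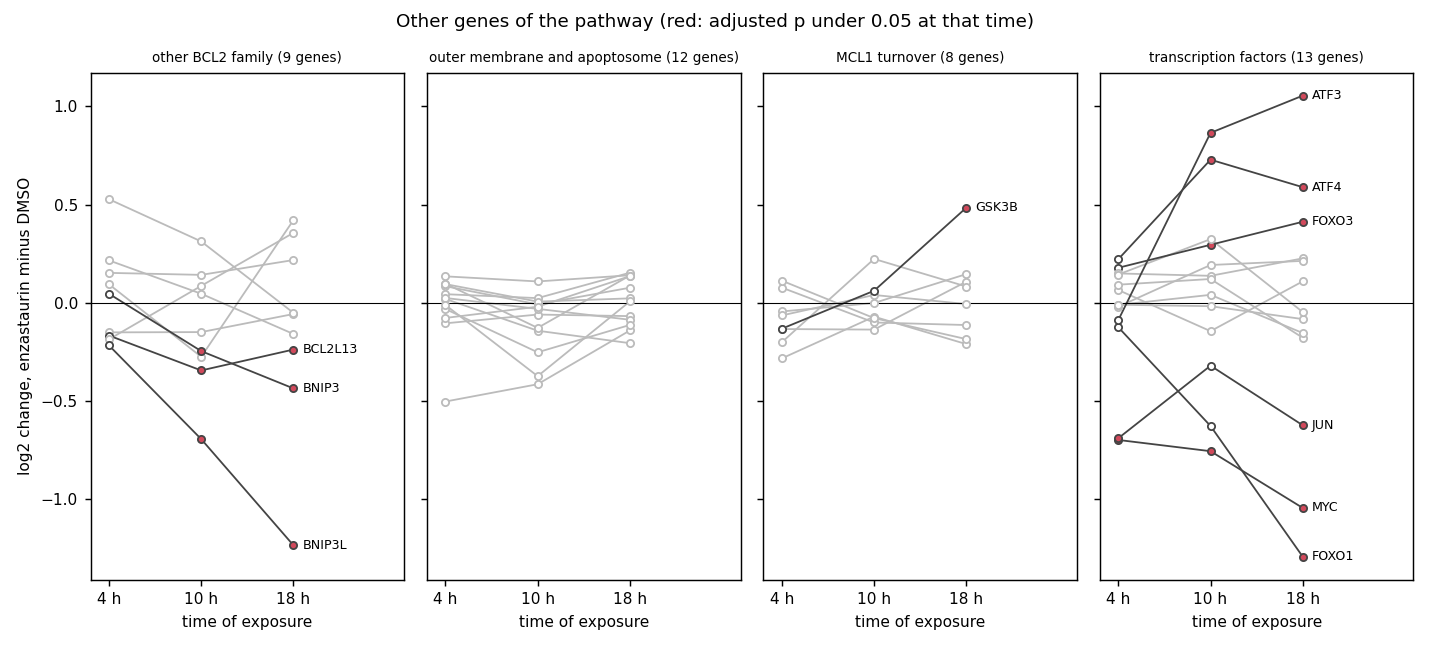
Change between enzastaurin and DMSO in log2(intensity + 16) at 4, 10 and 18 h for the tested genes of 4 lists, each line a gene and red where it passed. BNIP3L goes down to -1.23, ATF3 and ATF4 lie above 0 at 10 and 18 h, MYC lies below 0 at every hour, and the outer membrane genes stay between -0.50 and 0.15.

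Genes whose 6 group means lay closest to those of a member were found by the root mean square difference of centred log2 values. For BCL2L11, which spread by 0.31 about its own mean, they were LAMA2 (0.065), LOC102723847 (0.071) and CLDND2 (0.073). For PMAIP1, which spread by 0.22, they were CMTM5 (0.042), HOXB7 (0.045) and SIPA1L1 (0.051). For BID, which spread by 0.29, they were DOCK5 (0.055), DENND1A (0.062) and PPP1R9A (0.063). HOXB7 rose at 18 h by 0.67 (adjusted p = 2.48e-06), whereas CMTM5, with a change of 0.70, did not pass (adjusted p = 0.1). The distances rest on 6 group means each, and nothing is drawn from them about function or control.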

How the data were processed

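RNA from U251 cells was hybridised as biotin-labelled cRNA to Affymetrix arrays, and signals were made with GCOS 1.2 per the submitters' processing notes. The deposited intensity values are linear; per the files themselves each array was scaled to a common 2% trimmed mean, and values ran from 0.1 to 63584.9. Values were turned into log2(intensity + 16) from the deposited intensities here. Symbols came from the platform annotation: 41091 probe sets carried 1 symbol, 1801 several and 11721 none, and 41037 of those with 1 symbol matched RefSeq by gene ID. Per gene the brightest probe set was kept, and 12376 of 19775 genes reached the level filter (the median probe set level). limma 3.58.1 in R 4.3.3 fitted 1 mean per group over all 18 arrays, with eBayes and an intensity trend and Benjamini-Hochberg adjustment over all genes at 0.05. A second fit took every probe set with 1 symbol. The number of arrays limits the precision: the median SE was 0.134 for a change at 1 hour and 0.189 for a difference between hours. The script was tested on simulated data. Alternatives covered offset, filter, normalization, probe set choice, weights, trend, samples, replicate block and each array left out. Promoter windows came from RefSeq (GRCh38.p14). All members are named. From each pathway list the text names up to 4 genes with the smallest adjusted p among those that passed, and for each member that passed the 3 closest genes. VDAC1, VDAC2, VDAC3, CYCS, APAF1, XIAP, FBXW7, HUWE1, MAPK8 and the markers are named in addition, chosen after values were seen. The members and lists were chosen with earlier results of these data known.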

Additional observations from a re-analysis of the deposited data

Results flagged for a closer look

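The effect of enzastaurin differed between hours for 2 members by a direct test of the difference in limma. For BCL2L11 the effect at 18 h exceeded that at 4 h by 1.05 (SE 0.11, adjusted p = 2.5e-06), that at 18 h exceeded that at 10 h by 0.60 (SE 0.11, adjusted p = 0.0037), and that at 10 h exceeded that at 4 h by 0.45 (SE 0.11, adjusted p = 0.0422). That last difference was lost in 14 of 23 alternatives and did not pass in the fit of every probe set (adjusted p = 0.0873). For PMAIP1 the effect at 18 h exceeded that at 4 h by 0.70 (SE 0.11, adjusted p = 0.000257). At 18 h both genes were higher in 3 of 3 enzastaurin arrays than in every DMSO array, while at 4 h the groups of both overlapped.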

How the results depend on the processing

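No result changed sign between 2 called values, and the 18 h rises of BCL2L11 and PMAIP1 and their growth between 4 and 18 h passed in each of the alternatives run for them. Subtracting array medians, which moved the median change of all genes at 4 h to 0.12, gave 79 genes called at 4 h (54 higher and 25 lower, against 69 and 155 otherwise), 443 at 10 h and 1187 at 18 h, against 224, 1046 and 1981. It left 0 member probe sets called at 4 h and 0 at 10 h, 0 members at 10 h, 0 for the difference between 10 and 4 h and 0 between 18 and 10 h, and 1 between the DMSO hours. Averaging the probe sets of a gene gave 133 genes at 4 h and 658 at 10 h, and 1 member at 4 h, 1 at 10 h and 1 for the average. With only the groups compared in the fit, 139 genes passed at 4 h. The 10 minus 4 h difference had 0 members in that fit, without a level filter and without a trend. Quantile normalization gave 2 members for 18 minus 10 h and 5 for the DMSO hours. Leaving out 1 array gave 138 to 177 genes at 4 h, 653 to 791 at 10 h and 1525 to 1824 at 18 h; member probe sets numbered 0 to 1, 0 to 3 and 4 at these hours, and members 0, 0 to 3 and 2 to 3. For the differences, 2 to 3 members passed for 18 minus 4 h, 0 to 1 for 10 minus 4 h and 1 to 2 for 18 minus 10 h, 2 to 3 for the average, and 1 to 3 between the DMSO hours.

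Enzastaurin and DMSO arrays share replicate numbers, but the deviations of same-numbered arrays correlated at -0.08 to 0.05 over 9 pairs, so the numbers were not taken as pairs. With the replicate block, 212 genes passed at 4 h, 1045 at 10 h and 1946 at 18 h, and 0, 2 and 3 members. It took JUN at 10 h past the threshold (adjusted p = 0.0383) and BNIP3 at 10 h (0.0509) and the BID probe set at 18 h (0.0565) out of it. The cause of these shifts was not tested. Signal over background limits BIK and BCL2, which lay near the level filter.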

Other observations

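FOXO1 and FOXO3, factors that share a DNA-binding domain and act on BCL2L11 in several cell types, moved in opposite directions and were singled out after their values were seen. FOXO3 had changes of 0.18 at 4 h, 0.30 at 10 h (adjusted p = 0.0122) and 0.41 at 18 h (adjusted p = 0.000329). FOXO1 had changes of -0.12, -0.63 and -1.29, of which the 18 h value passed (adjusted p = 0.000509). These values come from the brightest of 4 probe sets for FOXO3 and of 3 for FOXO1. Neither gene was run through the alternatives, and a link to BCL2L11 was not tested.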
